A study of Bos taurus with 13 samples.

Results

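Extracellular vesicle (EV)-coupled miRNAs of follicular fluid were compared between all postpartum cows and heifers, that is, between animals in early lactation after a calving and young animals that had not calved. All 13 pools of the series entered the comparison: the 10 pools labelled as postpartum and the 3 pools labelled as heifers. The series lists 311 miRNAs for at least 1 pool, and the 262 miRNAs listed for all 13 pools were taken. Of these, 239 passed the filter on low reads and were tested, and 23 were too low to be tested.

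Follicular fluid of Holstein Friesian animals was drawn from large follicles by ovum pick-up, EVs were isolated by ultracentrifugation, and 1 small RNA library was sequenced per pool. The cow pools joined 4 groups. Transient cows (TCs) gave 3 pools labelled early negative (11 cows, weeks 5 to 6 post-calving, negative energy balance) and 3 pools labelled late positive (7 cows, weeks 9 to 10, positive energy balance). Always negative cows (ANCs) and always positive cows (APCs) gave 2 pools each, from 2 cows per group at weeks 5 to 6. The 3 heifer pools held fluid of 8 heifers, which the study describes as metabolically unstressed. How the animals of a group were divided among its pools, whether TCs of the earlier weeks were sampled again later, and the ages and numbers of calvings are not given in the sources used here. The pools are the replicates, so the p-values measure the spread between pools. The tests take all pools as independent, which would not hold if the same TCs entered pools of both times. Calving, lactation and age differ together between the sides and cannot be told apart. Energy status differs between them in part, since 5 of the 10 cow pools carry a positive label and 6 of the 10 come from TCs. The heifer pools carry no label of energy status.

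miRNAs are short RNAs that guide silencing proteins to matching mRNAs and lower their output. Cells release part of their miRNAs inside EVs, and the EVs of follicular fluid stem from the granulosa and theca cells that surround the oocyte and from blood plasma that passes into the follicle. Some miRNAs are made mostly in a particular tissue, such as miR-122 in liver, miR-223 in myeloid blood cells, miR-205 in epithelia and miR-206 in skeletal muscle.

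The libraries held 145030 to 421435 reads on miRNAs (median 327359), and the miRNAs listed for all pools took 99.929% to 99.995% of them. Levels are given as CPM, reads relative to the library size, after all 13 libraries were brought to 1 scale by TMM, which trims extreme miRNAs before it compares libraries. A level of 3 reads, taken as the lower limit of what is visible, stood at 7.3 to 20.1 CPM. The gonad-enriched bta-miR-202 was at 2983 to 8014 CPM in the cow pools and at 4680, 3410 and 6364 CPM in heifer replicates 1, 2 and 3. On the component that carried the largest share of the variance (28.1%), heifer replicate 3 lay among the cow pools, whereas heifer replicates 1 and 2 lay at an end that TC replicate 1 of weeks 9 to 10 shared with them.

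A miRNA was called differentially expressed (DE) by the thresholds of the study: a size of at least 1 on the log2 scale, p under 0.05 and, in limma with Benjamini-Hochberg adjustment, an adjusted p of at most 0.25. Fold changes are differences of mean log2(CPM + 5), cows minus heifers. At these thresholds 15 of the 239 tested miRNAs (6.28%) were called. Of these, 12 (5.02% of the tested) were lower in cows and 3 (1.26%) were higher. The lower miRNAs were bta-miR-204, bta-miR-155, bta-miR-223, bta-miR-1, bta-miR-183, bta-miR-184, bta-miR-205, bta-miR-206, bta-miR-708, bta-miR-146a, bta-miR-122 and bta-miR-18a, and the higher ones were bta-miR-6518, bta-miR-1839 and bta-miR-130a. The lowest adjusted p-value was 0.0522, so 0 miRNAs passed an adjusted p-value of 0.05, and 5 passed 0.1. An unadjusted p-value under 0.05 was reached by 35 miRNAs (14.6%), 25 of them lower (10.5%) and 10 higher (4.18%) in cows. Over all 239 miRNAs the median log2 fold change was -0.033, with 116 above 0 and 123 below. With library totals in place of TMM that median was -0.151, and 17 miRNAs were called, 15 lower and 2 higher.

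**Figure D1:**
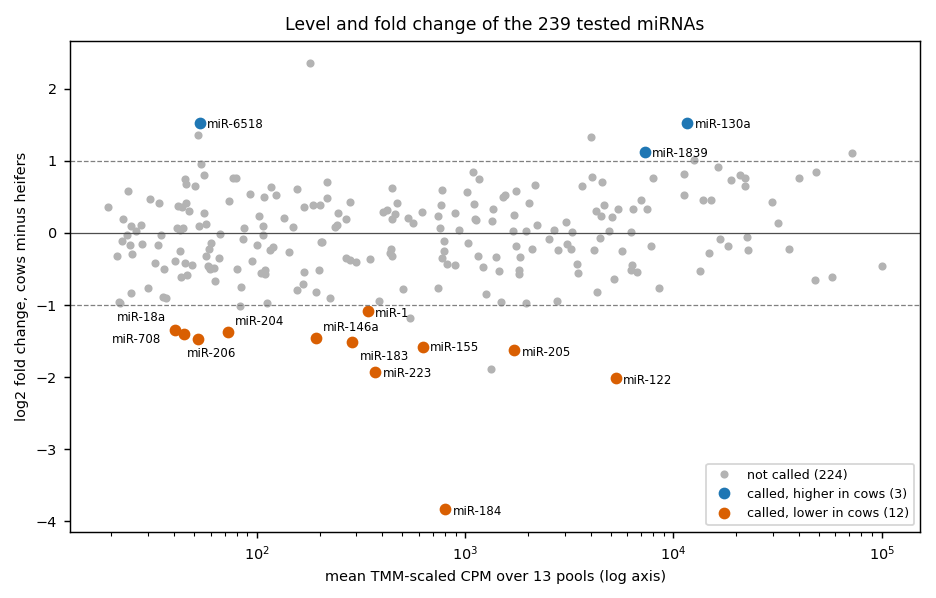
Mean level over the 13 pools (TMM-scaled CPM, log axis) against the log2 fold change of cows minus heifers, 1 point per tested miRNA, with dashed lines at a log2 fold change of 1 in either direction. The 12 called miRNAs that were lower in cows spread from low levels (bta-miR-18a) to high ones (bta-miR-122), and bta-miR-184 lies far below the others at -3.83.

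The groups separated completely, with no overlap of any cow pool with any heifer pool, for 11 of the 239 miRNAs (4.6%). In 8 (3.35%) all cow pools lay below the heifer pools and in 3 (1.26%) all lay above. Of the called miRNAs, 6 were among them: bta-miR-204, bta-miR-155, bta-miR-223, bta-miR-1 and bta-miR-708 below, and bta-miR-6518 above. Complete separation gives 0.00699 in the exact permutation test (two-sided), which with 10 against 3 pools can go no lower. Over all 239 miRNAs, 38 (15.9%) had an exact permutation p-value under 0.05. The 15 called miRNAs were chosen on these same pools, so that 14 of them were below 0.05 (bta-miR-130a had 0.0559) only describes them.

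**Figure D2:**
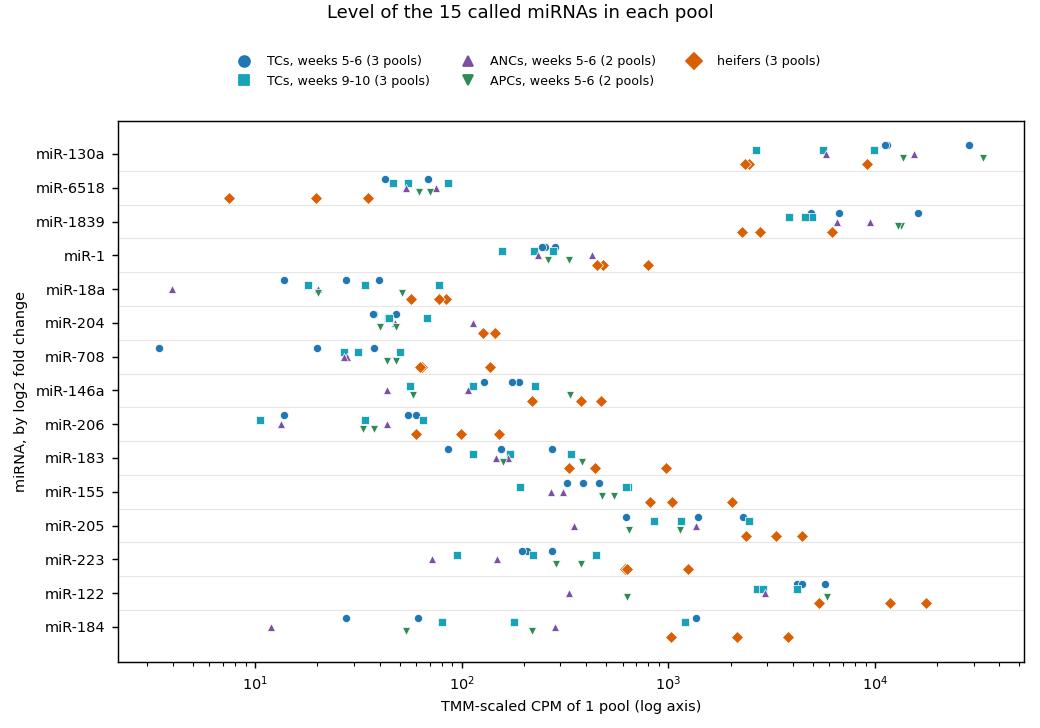
Level of each called miRNA in each of the 13 pools (TMM-scaled CPM, log axis), with miRNAs ordered by log2 fold change and symbols for the 4 cow groups and the heifers. The heifer pools (diamonds) lie to the right of most cow pools for the 12 lower miRNAs and to the left for bta-miR-6518, while the ranges overlap for bta-miR-130a and bta-miR-1839.

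Blood cell miRNAs were among those lower in cows. Of 8 leukocyte miRNAs, 7 were tested, 3 were called lower and 0 higher in cows, beside 5.02% lower among all tested, and the median log2 fold change of the 7 was -1.18. The list was chosen with earlier results of these data known, so its values describe it and add no test. In pooled fluid, fewer EVs from a cell type and fewer copies per EV cannot be told apart. bta-miR-223, which is abundant in neutrophils and monocytes, stood at 71.3 CPM in the lowest cow pool, at a median of 213 and at 448 in the highest, against 618, 1245.8 and 631 CPM in heifer replicates 1, 2 and 3. The groups did not overlap, and ANCs held both the lowest pool and the lowest group mean. Its log2 fold change was -1.92 (SE 0.47, adjusted p = 0.0582), a 3.79-fold lower level. bta-miR-155, which is induced in activated lymphocytes and macrophages, ranged from 192 to 635 CPM in cows (median 423.75) and was at 815, 1039 and 2035 CPM in heifers. All cow pools were below all heifer pools, and heifer replicate 3 stood above the other heifers. Its log2 fold change was -1.59 (SE 0.37, adjusted p = 0.0522). bta-miR-146a, a brake on inflammatory signalling, ranged from 43.6 to 334 CPM in cows (median 120) and was at 217, 376.98 and 472 CPM in heifers. Of the cow pools, 8 of 10 lay below the lowest heifer pool, and the log2 fold change was -1.46 (SE 0.52, adjusted p = 0.219).

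The other tested leukocyte miRNAs were not called. bta-miR-150, a miRNA of mature lymphocytes, had a log2 fold change of -1.18 (adjusted p = 0.289). bta-miR-142-5p, which is found across blood cell lineages, had -0.96 (adjusted p = 0.388), and bta-miR-342 had -0.64 (adjusted p = 0.241). bta-miR-146b, whose sequence is close to that of bta-miR-146a, had 0.19 (adjusted p = 0.869). bta-miR-142-3p was below the filter. Summed over the list, the cow pools held 5153 to 10303 CPM (median 7990) and the heifer pools 12256, 14400 and 12054 CPM. These sums did not overlap. Their largest part was bta-miR-342, which was not called and whose levels overlapped between cows and heifers. It was at 2676 to 6933 CPM in cows and at 7146, 7734 and 6132 CPM in heifers. The sum is therefore no measure of the called members alone. The red cell miRNAs did not go with the leukocyte miRNAs. Their sum was 131 to 10962 CPM in cows, and the heifers, at 3958, 2157 and 1717 CPM, lay inside that range. bta-miR-486, the more abundant of them, had a log2 fold change of -0.22 (SE 0.98, adjusted p = 0.918) and bta-miR-451 had -0.91 (SE 1.13, adjusted p = 0.668). Both signs turned in edgeR's and DESeq2's fits of the reads, to 0.54 and 0.59 for bta-miR-486 and to 0.05 and 0.09 for bta-miR-451. bta-miR-144, the neighbour of bta-miR-451 in erythroid cells, was listed for the heifers alone, with 2, 4 and 1 reads.

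Of 9 tested epithelial miRNAs, 3 were called lower in cows, beside 5.02% among all tested. The median log2 fold change of the 9 was -0.95 and all 9 were below 0, also with library totals and with the relative log expression (RLE) scaling. This list too was chosen with earlier results known, so its values only describe it. bta-miR-184, which is abundant in corneal and other surface epithelia, showed the largest difference of all tested miRNAs and also a wide spread. It ranged from 11.9 to 1357 CPM in cows (median 129), a 114-fold range, and was at 1028, 3790 and 2143 CPM in heifers. The lowest pool, ANC replicate 1, held 3 reads, the lower limit taken here, and TC replicate 3 of weeks 5 to 6 held 8. The pools of TC replicate 2 of weeks 5 to 6 and TC replicate 2 of weeks 9 to 10, at 1357 and 1209 CPM, lay above heifer replicate 1, and the other 8 cow pools lay below all heifers. The log2 fold change was -3.83 (SE 1.10, 95% interval -6.17 to -1.50, adjusted p = 0.110).

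bta-miR-205, a miRNA of stratified epithelia that is also found in the mammary gland, ranged from 349 to 2442 CPM in cows (median 1144) and was at 3301, 4449 and 2369 CPM in heifers. In 9 of 10 cow pools it was below the lowest heifer pool, and the log2 fold change was -1.63 (SE 0.48, adjusted p = 0.120). bta-miR-183, a miRNA of sensory epithelia, ranged from 85.8 to 380.7 CPM in cows (median 163) and was at 331, 439 and 978 CPM in heifers. Of the cow pools 8 of 10 lay below the heifers, and the log2 fold change was -1.51 (SE 0.43, adjusted p = 0.110). Its gene lies within 10000 bases of those of bta-miR-182 and bta-miR-96 in the RefSeq annotation of ARS-UCD2.0. bta-miR-182 had -0.94 (adjusted p = 0.303) and was not called, and bta-miR-96 was not listed for all pools. The miR-200 family, which keeps cells epithelial, ran from -0.97 for bta-miR-200c to -0.24 for bta-miR-200a, and 0 of its 5 members was called or had an unadjusted p-value under 0.05 in limma, in edgeR or in DESeq2. Summed over the list, the cow pools held 5542 to 33419 CPM (median 8600) and the heifer pools 17326, 27145 and 17897 CPM, with overlap. Whether the share of EVs from white blood cells or epithelia had a part in the other differences was not tested.

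Muscle miRNAs divided. The striated muscle miRNAs bta-miR-1 and bta-miR-206, whose sequences are near-identical over most of their length so that the division of reads between them is uncertain, were called lower in cows. bta-miR-1 ranged from 156 to 428 CPM in cows (median 257) and was at 484.3, 452 and 798 CPM in heifers. All cow pools lay below all heifer pools, and the log2 fold change was -1.09 (SE 0.29, adjusted p = 0.0832). bta-miR-206 ranged from 10.5 to 64.5 CPM in cows (median 35.9) and was at 98.8, 59.9 and 151 CPM in heifers, which rests on 2 to 21 reads per cow pool and 20 to 56 per heifer pool. Of the cow pools 9 of 10 lay below the lowest heifer pool, and the log2 fold change was -1.47 (SE 0.49, adjusted p = 0.214). The other 4 tested members of the list were not called. bta-miR-133a, whose gene neighbours a bta-miR-1 gene, had -0.42 (adjusted p = 0.616). The smooth muscle miRNAs bta-miR-143 and bta-miR-145 had 0.14 and 0.58 (adjusted p = 0.798 and 0.501), and bta-miR-499 of heart and slow muscle had 0.42 (adjusted p = 0.562). The sum over the list, most of it bta-miR-143, was 22388 to 44342 CPM in cows and 36872, 40814 and 19285 CPM in heifers.

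bta-miR-122, which makes up much of the miRNA of hepatocytes and acts on lipid and cholesterol metabolism, was the called miRNA with the highest level among those lower in cows. It ranged from 328.8 to 5858 CPM in cows (median 3555) and was at 17623, 11851 and 5369 CPM in heifers. Heifer replicate 3 lay inside the range of the cows, and 8 of 10 cow pools lay below it. The log2 fold change was -2.01 (SE 0.75, 95% interval -3.61 to -0.42, adjusted p = 0.219), a 4.04-fold lower level. The pools furthest below were ANC replicate 1 at 328.8 CPM and APC replicate 1 at 631 CPM. bta-miR-122 was the 1 called member of the 8 tested miRNAs of insulin and lipid metabolism, 6 of which had log2 fold changes above 0. Among those, bta-miR-103 and bta-miR-107, which lower insulin sensitivity in liver and fat, had 0.76 and 0.80 (adjusted p = 0.552 and 0.562).

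The lower miRNAs outside the tissue lists included 2 that lie inside protein-coding genes. bta-miR-204 overlaps TRPM3, an ion channel gene, in RefSeq, and it ranged from 37.0 to 114 CPM in cows (median 46.1) and was at 143.3, 144.8 and 126.7 CPM in heifers. All cow pools were below all heifer pools, 9 of them at 68.1 CPM or less, and ANC replicate 2 alone came near the heifers. The log2 fold change was -1.38 (SE 0.32, adjusted p = 0.0522), from 11 to 19 reads in cow pools and 29 to 58 in heifer pools. bta-miR-708 overlaps TENM4, a gene for a cell surface protein, and ranged from 3.43 to 50.2 CPM in cows (median 29.6) and was at 64.2, 62.4 and 137 CPM in heifers. The groups did not overlap, and the lowest pool, TC replicate 3 of weeks 5 to 6, held 1 read. Cows and heifers differed by -1.40 on the log2 scale (SE 0.48, adjusted p = 0.214).

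bta-miR-18a belongs to the miR-17-92 cluster, whose miRNAs favour cell proliferation and are cut from a shared transcript. It ranged from 3.96 to 77.8 CPM in cows (median 23.8) and was at 84.0, 77.4 and 56.6 CPM in heifers. Of the cow pools 9 of 10 lay below the heifers, and the log2 fold change was -1.34 (SE 0.51, adjusted p = 0.227), from 1 to 32 reads in cow pools. The other members of the cluster did not go with it. bta-miR-92a had 0.76 (adjusted p = 0.241), bta-miR-19a 0.50, bta-miR-19b 0.42, bta-miR-20a 0.03 and bta-miR-17-5p -0.41, and 0 of these 5 was called by limma. edgeR did not call bta-miR-18a, and DESeq2 did.

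Higher in cows were 3 miRNAs. bta-miR-6518, whose gene overlaps that of adrenomedullin (ADM) in RefSeq, ranged from 42.7 to 86.1 CPM in cows (median 65.1) and was at 19.8, 7.49 and 35.04 CPM in heifers. All cow pools lay above all heifer pools and the cow pools stayed within a narrow range. The log2 fold change was 1.52 (SE 0.33, adjusted p = 0.0522), a 2.88-fold higher level, from 8 to 24 reads per cow pool and 4, 3 and 13 per heifer pool. bta-miR-1839, a small RNA that arises outside the usual miRNA pathway, ranged from 3821 to 16110 CPM in cows (median 6628) and was at 2772, 2277 and 6189 CPM in heifers. Heifer replicate 3 overlapped the cows, and 6 of 10 cow pools lay above it. Cows were higher by a log2 fold change of 1.12 (SE 0.45, adjusted p = 0.241). bta-miR-130a, which is linked to vessel growth and blood cell formation, ranged from 2668 to 33415 CPM in cows (median 11284) and was at 2451, 2344 and 9127 CPM in heifers. Of the cow pools 7 of 10 lay above heifer replicate 3, and the log2 fold change was 1.53 (SE 0.64, adjusted p = 0.241).

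Some smaller differences separated the groups without overlap or passed the adjusted p-value without reaching a 2-fold change. There were 14 tested miRNAs with an adjusted p-value of at most 0.25 and a fold change under 2, 8 lower and 6 higher in cows. bta-miR-186 ranged from 491 to 961 CPM in cows (median 581) and was at 998, 1109 and 1067 CPM in heifers, without overlap (log2 fold change -0.76, SE 0.26, adjusted p = 0.214). bta-miR-425-5p and bta-miR-151-3p were also below the heifers in all cow pools, with -0.57 (SE 0.20) and -0.55 (SE 0.22) and adjusted p-values of 0.219 and 0.241. bta-miR-660, a member of an X-linked miRNA cluster, was above the heifers in all cow pools, at 1345 to 1890 CPM (median 1656) against 974, 1241 and 1261 CPM (log2 fold change 0.52, SE 0.19, adjusted p = 0.219). bta-miR-25, at 24056 to 41059 CPM in cows and 22896, 23076 and 23463 CPM in heifers, did not overlap either, but its difference of 0.43 (SE 0.24, adjusted p = 0.3998) did not pass the test.

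All called miRNAs except bta-miR-1 were among the DE miRNAs that the study listed for ANCs or for APCs against heifers, in the same direction. Of the 7 miRNAs that the study named as shared by its comparisons of ANCs and of APCs with heifers, 3 were called here over all cows: bta-miR-184, bta-miR-205 and bta-miR-6518. The study chose its miRNAs on these same pools, so neither overlap is independent of its values. bta-miR-26a, a widely expressed miRNA, ranged from 6206 to 18449 CPM in cows (median 12669) and was at 6686, 5742 and 8000 CPM in heifers. Its log2 fold change was 0.82 (SE 0.31, adjusted p = 0.220), with 9 of 10 cow pools above the highest heifer pool. bta-miR-423-5p, which was among the 5 most abundant miRNAs, had 0.84 (SE 0.36, adjusted p = 0.255), bta-miR-92b had 0.77 (SE 0.54, adjusted p = 0.490) and bta-miR-6520 had 0.77 (SE 0.54, adjusted p = 0.490). None of these 4 reached a log2 fold change of 1 over all cow pools. Without the 3 late positive TC pools, all 4 were called, at 1.08, 1.06, 1.13 and 1.22 in the order given. In that fit 24 of all 235 tested miRNAs were called, 12 of them higher in cows. The ANC and APC pools, on which the study chose the 7, also weigh more in it.

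Further lists held 0 called members by limma. The let-7 family, which favours differentiation, had 9 of 9 tested members below 0 under TMM, library totals and RLE (median -0.35 under TMM), and its most abundant member bta-let-7b ranged from 34164 to 75615 CPM in cows (median 48346) and was at 82965, 99748 and 53781 CPM in heifers. Its log2 fold change was -0.61 (SE 0.28, adjusted p = 0.296). bta-let-7g had -0.81 (adjusted p = 0.219). These 2 were the members with an unadjusted p-value under 0.05 in limma, and edgeR and DESeq2 called 0. Miscounting between let-7 members, which differ by few bases, cannot be told apart from their levels. The miRNAs of the imprinted DLK1-DIO3 region had 9 of 9 tested members below 0 (median -0.45, bta-miR-432 -0.78), 8 of 9 with RLE. At an unadjusted p-value under 0.05 there were 3 in limma, and edgeR and DESeq2 called 0. With library totals 1 of them, bta-miR-127, was called lower.

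Other families lay mostly above 0. The miR-23, miR-24 and miR-27 clusters had 6 of 6 members above 0 (median 0.56), 5 of 6 with library totals, and DESeq2 called 1 of them, bta-miR-23b-3p, while limma and edgeR called 0. Their most abundant member bta-miR-23a had 0.65 (SE 0.59, adjusted p = 0.562). The ruminant miR-2284 and miR-2285 families had 10 of 11 tested members above 0 (median 0.28), 9 of 11 with library totals. bta-miR-2284x, their most abundant member, had 0.77 (SE 0.31, adjusted p = 0.241), with 8 of 10 cow pools above all heifers. Of the 6 tested miRNAs of non-canonical origin, 5 were above 0 (4 with library totals), and bta-miR-1839 was called by limma and by DESeq2 but not by edgeR. bta-miR-320a, which stood at 168850 CPM in TC replicate 3 of weeks 5 to 6, had 1.11 (SE 0.58, adjusted p = 0.383) and was not called by limma or edgeR. It was called by DESeq2 (1.36), with equal weight of the cow groups (1.19), without TC replicate 1 of weeks 9 to 10 (1.28) and without all 3 pools of those weeks (1.55).

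Follicle miRNAs did not separate the groups. Of 11 tested miRNAs of gonad and follicle, 7 were above and 4 below 0 (6 and 5 with library totals), with a median of 0.27, and 0 had an unadjusted p-value under 0.05 in limma or edgeR. DESeq2 called 1, bta-miR-424-5p. bta-miR-21-5p, the most abundant miRNA, ranged from 46413 to 191370 CPM in cows (median 66897) and was at 89607, 135170 and 122840 CPM in heifers. All heifer pools lay inside the range of the cows, and the log2 fold change was -0.46 (SE 0.44, 95% interval -1.39 to 0.48, adjusted p = 0.573). bta-miR-132, which gonadotropins induce in granulosa cells, was at 959, 237 and 6420 CPM in heifers and at 68.3 to 4872 CPM in cows (median 180), and its log2 fold change of -1.88 (SE 1.27, adjusted p = 0.490) was not called. bta-miR-202 had 0.03 (95% interval -0.61 to 0.66). The endothelial bta-miR-126-3p had 0.20 (adjusted p = 0.736), bta-miR-10b of the HOX clusters -0.17 (adjusted p = 0.699) and bta-miR-30d of the miR-30 family -0.44 (adjusted p = 0.483). bta-miR-16b, also among the 5 most abundant, had -0.65 (SE 0.33, adjusted p = 0.383).

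**Figure D3:**
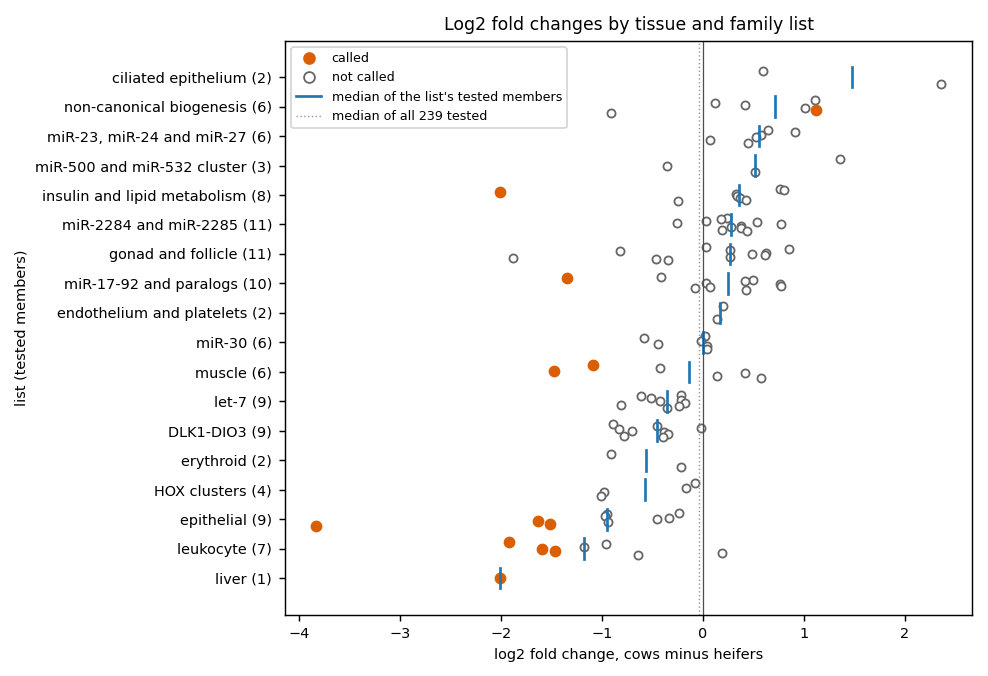
Log2 fold change, cows minus heifers, of the tested members of each tissue or family list (number in brackets), with called members filled, a bar at the median of each list and a dotted line at the median of all 239 tested miRNAs. The called members of the leukocyte and epithelial lists lie at the left, and the called members of the muscle and miR-17-92 lists lie to the left of the uncalled ones.

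The 4 cow groups were next set beside each other against the same 3 heifer pools, which they share. The members were chosen for their difference over all cows, so these values describe them and add no test. All 15 called miRNAs had the same direction in each of the 4 groups. Their median size of the difference was 1.46 in TCs at weeks 5 to 6, 1.46 in TCs at weeks 9 to 10, 1.77 in ANCs and 1.33 in APCs. The difference was largest in ANCs for 8 of the 15, among them bta-miR-223 (-2.88, against -1.79 and -1.87 in TCs at the earlier and later weeks and -1.25 in APCs) and bta-miR-122 (-3.39, against -1.13, -1.70 and -2.43). How often this held over all 239 tested miRNAs was not counted. For bta-miR-122 it came from ANC replicate 1, at 328.8 CPM, since replicate 2 at 2926 CPM lay inside the range of the other cow pools. Low reads also enter: ANC replicates 1 and 2 held 1 and 3 reads of bta-miR-18a, and replicate 1 held 3 of bta-miR-184. bta-miR-6518 was alike in all groups, from 1.46 to 1.61. bta-miR-130a was at 2.04 and 0.50 in TCs at the earlier and later weeks, 1.34 in ANCs and 2.52 in APCs, and bta-miR-1839 at 1.25, 0.38, 1.22 and 1.95.

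Whether the cow groups differed among themselves was tested with limma's moderated F test in a fit of 5 group means. It called 0 of 239 miRNAs (0%) at an adjusted p-value of 0.25, with 28 (11.7%) at an unadjusted p-value under 0.05, and edgeR called 0, with 23. None of the 15 called miRNAs had an unadjusted p-value under 0.05 in limma's F test, and the values of bta-miR-1839 and bta-miR-130a were 0.0569 and 0.0760. Spread among cow groups makes a call between cows and heifers less likely, so the choice of the 15 has a part in this. The lowest p-values were those of bta-miR-451 (0.00299), bta-miR-592 (0.00732) and bta-miR-874 (0.00767), each with an adjusted p of 0.357. bta-miR-592 ranged from 23.99 to 147 CPM in cows, with the 3 TC pools of weeks 9 to 10 at 85.1, 147 and 99.8 CPM, and was at 24.7, 14.98 and 40.4 CPM in heifers. bta-miR-874 was highest in APC replicate 2 at 287 CPM and lowest in TC replicate 1 of weeks 9 to 10 at 12.2 CPM. The count of 0 changed under other settings. It was 23 with library totals, 45 when replicate number entered the fit as a block and 1 when the measurement day was a covariate. It was 24 without TC replicate 2 of weeks 5 to 6, 3 without TC replicate 3 of those weeks and 2 without APC replicate 2, and it stayed at 0 without any one of the other 10 pools. Of the 15 called miRNAs, the block passed 3 (bta-miR-130a, bta-miR-1839 and bta-miR-205), and bta-miR-1839 passed without TC replicate 2 of weeks 5 to 6.

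Split by label, the 5 cow pools in negative energy balance (TCs at weeks 5 to 6 and ANCs) against the heifers gave 20 called of 231 tested (8.66%), 8 higher (3.46%) and 12 lower (5.19%). The 5 pools in positive energy balance (TCs at weeks 9 to 10 and APCs) against the same heifers gave 1 of 231 (0.433%), bta-miR-204. Both sets share the heifer pools, and all 15 called miRNAs, chosen over these same pools, had the same direction in both. For negative and positive cows respectively, bta-miR-6518 had 1.59 and 1.6, bta-miR-122 -1.93 and -1.93, bta-miR-206 -1.39 and -1.4, and bta-miR-204 -1.23 and -1.36. The values lay further apart for bta-miR-708 (-1.74 and -0.93), bta-miR-18a (-1.66 and -0.87), bta-miR-184 (-4.14 and -3.35), bta-miR-223 (-2.12 and -1.55) and bta-miR-130a (1.86 and 1.37). The difference between the 2 sets was not tested on its own. All 5 negative pools came from weeks 5 to 6, whereas the positive TC pools came from weeks 9 to 10. Energy label and weeks since calving therefore differ together in part and cannot be told apart in this split.

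**Figure D4:**
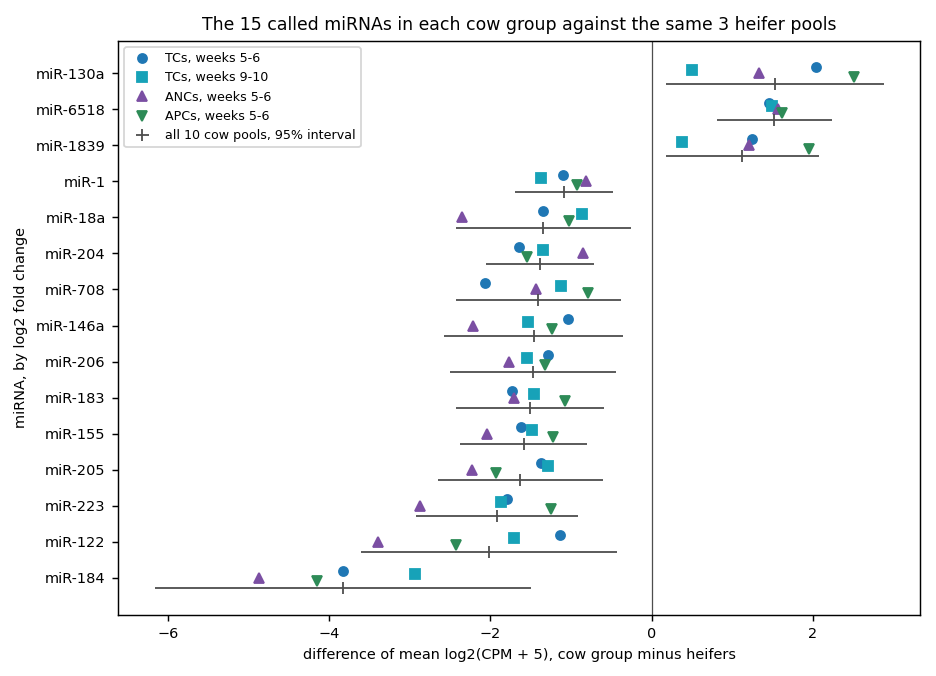
Difference of mean log2(CPM + 5) between each cow group and the 3 heifer pools for the 15 called miRNAs, with the fold change over all 10 cow pools and its 95% interval as a line under each set of symbols. All symbols of a miRNA lie on 1 side of 0, and ANCs (triangles pointing up) lie furthest from 0 for 8 miRNAs.

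The day of RNA measurement that the study lists separates the pools within each group. On day 1 there were 4 cow pools and heifer replicate 1, on day 2 there were 5 cow pools and heifer replicates 2 and 3, and 1 APC pool has no day. Every pool numbered replicate 1 was measured on day 1 and every other pool with a day on day 2, so the replicate number carries the day. All 15 called miRNAs had the direction of the whole comparison on both days, and 12 had a size of at least 1 on both. They were chosen for their difference over these same pools, and day 1 has 1 heifer pool, so these values add no test. Those under 1 on a day were bta-miR-155 (-0.90 on day 1 and -2.02 on day 2), bta-miR-708 (-0.82 and -1.88) and bta-miR-1839 (1.31 and 0.90). bta-miR-122 was at -3.82 on day 1 and -1.03 on day 2. With the day as a covariate, 9 miRNAs were called among 12 pools, 8 lower and 1 higher, against 13 in the same 12 pools without it. When replicate number entered as a block, 18 of the 239 were called over all 13 pools, among them all 15.

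The number of calls moved with each of the 3 heifer pools. Without heifer replicate 2, 0 miRNAs were called by limma at a lowest adjusted p-value of 0.290, with 15 at an unadjusted p-value under 0.05. In that fit all 15 called miRNAs, which were chosen with that pool included, had the same direction. Of the 15, 14 had a size of at least 1 and 11 an unadjusted p-value under 0.05. Without heifer replicate 1, 7 miRNAs were called, and without heifer replicate 3, 24 were called, 10 of them higher in cows, and 11 of these 24 were among the 15. Of the cow pools, leaving out TC replicate 1 of weeks 5 to 6 or ANC replicate 2 left 8 calls each, and the other 8 left 10 to 17. The calls that depended least on the pools were bta-miR-155, bta-miR-183, bta-miR-184, bta-miR-204, bta-miR-223 and bta-miR-6518, each called in 12 of the 13 fits without 1 pool, whereas bta-miR-130a was called in 3, and bta-miR-18a and bta-miR-1839 in 4 each.

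**Figure D5:**
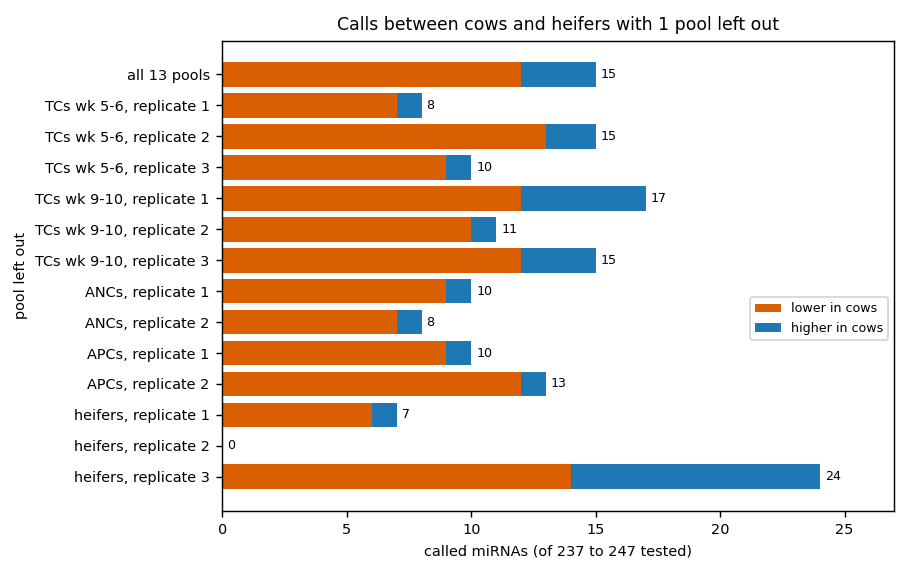
Number of miRNAs called between cows and heifers with all 13 pools and with each pool left out in turn, divided into those lower and those higher in cows. The count runs from 0 without heifer replicate 2 to 24 without heifer replicate 3.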

How the data were processed

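Small RNA of follicular fluid EVs was sequenced in 13 pools with the QIAseq miRNA kit. Per the labels and the study's methods, the authors trimmed adaptors with Cutadapt 1.11, mapped reads to the bovine genome UMD3.1 with Bowtie2 2.2.2, annotated them with miRBase and normalized them with TMM. Whether molecular identifiers were collapsed is not given in the sources used here. The deposited signal values are TMM-normalized CPM, not logged, which the authors had scaled in separate comparisons, so levels of groups were not comparable as deposited.

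Whole reads were therefore recovered from the steps between low values, and 3681 of 3681 values came out within 0.1 read. The 262 miRNAs listed for all 13 pools were scaled together (TMM, edgeR 4.0.16) and filtered with filterByExpr (minimum count 10, minimum total 15). The planned test, limma 3.58.1 with a mean-variance trend on log2(CPM + 5), was fitted to all 239 tested miRNAs with Benjamini-Hochberg adjustment, and its code was checked on simulated reads. Exact two-sided permutation tests were made for single miRNAs (scipy 1.17.1). edgeR's quasi-likelihood test and DESeq2 1.42.0 on the recovered reads, other scalings, pseudocounts, filters, a replicate block and left-out pools were alternatives. Gene overlaps come from RefSeq names (ARS-UCD2.0). Intervals are 95% intervals from limma.

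The named miRNAs were the called ones (up to 12 per direction), 7 that the study names, called or most abundant members of the lists, the 3 lowest p-values of the F test and the 5 most abundant. Members and lists were chosen with earlier results of these data known. bta-miR-186, bta-miR-425-5p, bta-miR-151-3p, bta-miR-25 and the uncalled list members beyond the most abundant were named after their values were seen.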

Additional observations from a re-analysis of the deposited data

Results flagged for a closer look

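Among the named miRNAs, 2 had a cow pool whose gap to the nearest of the other 9 was large for the range of the group (Dixon's criterion at 10 samples). bta-miR-204 was at 113.8 CPM in ANC replicate 2, the highest of the cow pools, from 17 reads in the smallest library. bta-miR-708 was at 3.43 CPM in TC replicate 3 of weeks 5 to 6, the lowest, from 1 read. Such a pool was found in 13 of all 239 tested miRNAs, and the criterion marks about 5% of groups by chance.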

How the results depend on the processing

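Between cows and heifers, 15 miRNAs were called, and the count stayed within 1.5 times of that with edgeR (12), DESeq2 (21), pseudocounts of 1 or 20 CPM (15 and 14), no filter (13 of 262), library totals (17), RLE (15), the deposited values (14) and equal weight of the cow groups (20). It was 9 with the day as covariate, 0 at an adjusted p-value of 0.05, 6 without the early negative TCs, 24 without the late positive TCs, 7 without the ANCs and 1 with the positive cows alone, and 0 to 24 with 1 pool left out. Cow and heifer pools with the same replicate number deviated together in part: r ran from -0.151 to 0.372, was over 0.1 in 5 of 10 pairs, all 3 of the early negative TCs among them, and 5 of the 10 cow pools correlated best with their own number. Not every pair passed 0.1, so the block was left as an alternative, although replicate 1 is day 1 in every group. With the replicate block 18 miRNAs were called. Among the cow groups 0 were called, but 23 with library totals, 45 with the replicate block, 1 with the day as covariate, and 0 to 24 with 1 pool left out. In 420 fits under alternatives the 15 called miRNAs always kept their direction and were called in 319. They were chosen on these same pools, most of which each fit used again, so the kept direction only describes them. The 12 pools with a day were fitted without the covariate after the data were seen. Signs turned only in uncalled miRNAs: bta-miR-486 to 0.54 (edgeR), 0.59 (DESeq2), 0.36 (no ANCs) and -0.49 to 0.23 with 1 pool left out, bta-miR-451 to 0.05 (edgeR) and 0.09 (DESeq2), bta-miR-34c to -0.15 (DESeq2) and, with 1 pool left out, -0.01 to 1.74, and, likewise with 1 pool left out, bta-miR-10b (-0.26 to 0.02) and bta-miR-126-3p (-0.07 to 0.44). The cause of these changes was not tested. The number of heifer pools limits the precision, and bta-miR-6518, bta-miR-708, bta-miR-18a, bta-miR-184 and bta-miR-206 have a pool under 10 reads each.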

Other observations

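Beside the 15 called miRNAs, 8 had a log2 fold change of at least 1 in size and were not called by limma. edgeR called 0 of them, and DESeq2 called 3 (bta-miR-502a, bta-miR-320a and bta-miR-1246). Of the 8, bta-miR-449a (2.36, SE 1.32), bta-miR-873 (1.33, SE 0.81), bta-miR-1246 (1.01, SE 0.84) and bta-miR-502a (1.36, SE 0.69) were higher in cows with wide spreads, and bta-miR-196b of the HOX clusters was lower (-1.01, SE 0.59). bta-miR-449a and bta-miR-34c belong to a family of ciliated cells, and their sum was 9436 CPM in TC replicate 2 of weeks 5 to 6, whereas the median cow pool held 142.3 CPM and the heifer pools 44.5, 42.4 and 593 CPM. The same pool held 169 reads of bta-miR-34b, which was listed only for the early negative TCs, against 3 and 1 in the other pools of that group.

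The spread between pools was larger among cows than among heifers, with median SDs of log2(CPM + 5) over the 239 miRNAs of 0.606 and 0.409. This difference was not tested, and the cow pools join 4 groups.

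Of the 49 miRNAs not listed for all pools, 10 were listed for heifers and for no cow group, and bta-miR-320b was listed for all 4 cow groups and not for heifers. Most of them stood at few reads, such as bta-miR-383 with 2, 6 and 5 and bta-miR-363 with 3, 10 and 5 reads in the heifer pools, and no comparison was made.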
